A study of Mus musculus with 9 samples.

Results

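Matricellular proteins are secreted proteins that bind the extracellular matrix and cell surface receptors and adjust signalling and adhesion more than they bear load. The 10 genes described here encode 2 thrombospondins (Thbs1 and Thbs2), tenascin-C (Tnc), periostin (Postn), 4 CCN proteins (Ccn1, Ccn2, Ccn4 and Ccn5), fibronectin (Fn1) and the periostin relative Tgfbi. They were chosen by gene symbol among the 24011 genes of the table, and each was represented by 1 probe set. In skeletal muscle such proteins are made during repair, by muscle cells and by the stromal cells around them, and several are classic targets of TGF-beta signalling or of the mechanically regulated YAP-TAZ coactivators. BMP4 is a ligand of the TGF-beta superfamily and acts on BMP receptors and SMAD factors, and GREM1 captures BMP ligands outside the cell and blocks them.

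The cells were mouse primary myoblasts grown from satellite cells, the stem cells of skeletal muscle, first in 20% fetal bovine serum with basic FGF and then in 2% horse serum, where myoblasts begin to differentiate. One group received recombinant BMP4 at 100 ng/ml, a further one recombinant GREM1 at 500 ng/ml, and the control cells were mock-treated. RNA was taken after 24 h and measured on 9 Affymetrix arrays, 3 in each group. The labels give no strain, age or sex of the mice, and whether replicates came from separate cultures is not stated, so p-values reflect only how these samples vary, which may be technical variation.

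Values are log2 expression levels as the authors deposited them, in which a difference of 1 is a doubling. Array medians ran from 5.00 to 5.12. Control replicate 1 stood apart on the second principal component of the tested genes (20.9% of the variance). It was at 31.6, where the next highest array, BMP4 replicate 1, was at 6.12. Results of Ccn4, Thbs1 and Tnc against control are therefore also given without that control array. Of 10 myogenic markers 10 lay above the level filter, but 17142 of 24011 genes did, so passing it alone does not mark an identity. The level of these markers goes with the labelled identity. Their mean was 9.79 to 9.91 with BMP4, 9.94 to 10.12 with GREM1 and 9.55 to 9.89 in controls, above the array medians. Of 9 fibroblast markers measured, 3 lay above the filter (Col3a1, Thy1, and Pi16 on 7 of 9 arrays). The other 6 lay below it (Pdgfra, Dcn, Lum, Dpt, Twist2 and Dpp4). The mean of the 9 was 4.02 to 4.16 with BMP4, 4.0 to 4.07 with GREM1 and 4.08 to 4.14 in controls. Col3a1 itself averaged 7.27 with BMP4, 6.85 with GREM1 and 7.37 in controls, above the array medians. Thy1 averaged 5.55, 5.73 and 5.60 in the same order. Of 5 endothelial markers 2 lay above the filter (Pecam1, and Cdh5 on 3 of 9 arrays, with Kdr, Tek and Emcn below). The mean of the 5 was 3.63 to 3.75 with BMP4, 3.71 to 3.85 with GREM1 and 3.72 to 3.82 in controls. Of 5 leukocyte markers 2 lay above it (Cd68 and Itgam, with Ptprc, Adgre1 and Cd3e below), with a mean of 4.16 to 4.38 with BMP4, 4.23 to 4.28 with GREM1 and 4.25 to 4.30 in controls. The macrophage marker Cd68 itself averaged 6.56 ± 0.039 with BMP4, 6.39 ± 0.11 with GREM1 and 6.54 ± 0.14 in controls (SD, n = 3 each). Above the filter were also 3 of 5 tendon markers (Scx, Mkx and Fmod), 4 of 5 pericyte markers (all but Kcnj8) and 1 of 2 Schwann cell markers (Sox10, with S100b below). In a bulk sample, fewer cells of a type and less RNA per cell cannot be told apart.

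Of the 10 genes, 9 lay above the filter on all 9 arrays and were tested, while Postn lay below it on every array. In limma, with Benjamini-Hochberg adjustment over 17142 genes, 2 of the 9 tested genes rose with GREM1 against control, Thbs1 and Ccn4, and 0 fell (2.07% of all tested genes rose and 2.21% fell). With BMP4 against control 0 of the 9 passed (0.117% of all genes did), although 3 had an unadjusted p under 0.05, Tnc, Ccn4 and Ccn5, as did 8.02% of all genes. Between the 2 treatments, Thbs1 and Ccn4 were lower with BMP4 than with GREM1 and 0 were higher (2.83% of all genes were lower and 3.62% higher). The median difference over the 9 tested genes was -0.011 for BMP4 minus control, 0.0033 for GREM1 minus control and -0.033 for BMP4 minus GREM1, where the medians of all tested genes were -0.0060, -0.0057 and -2.3e-05. All values against control rest on the same 3 control arrays.

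**Figure D1:**
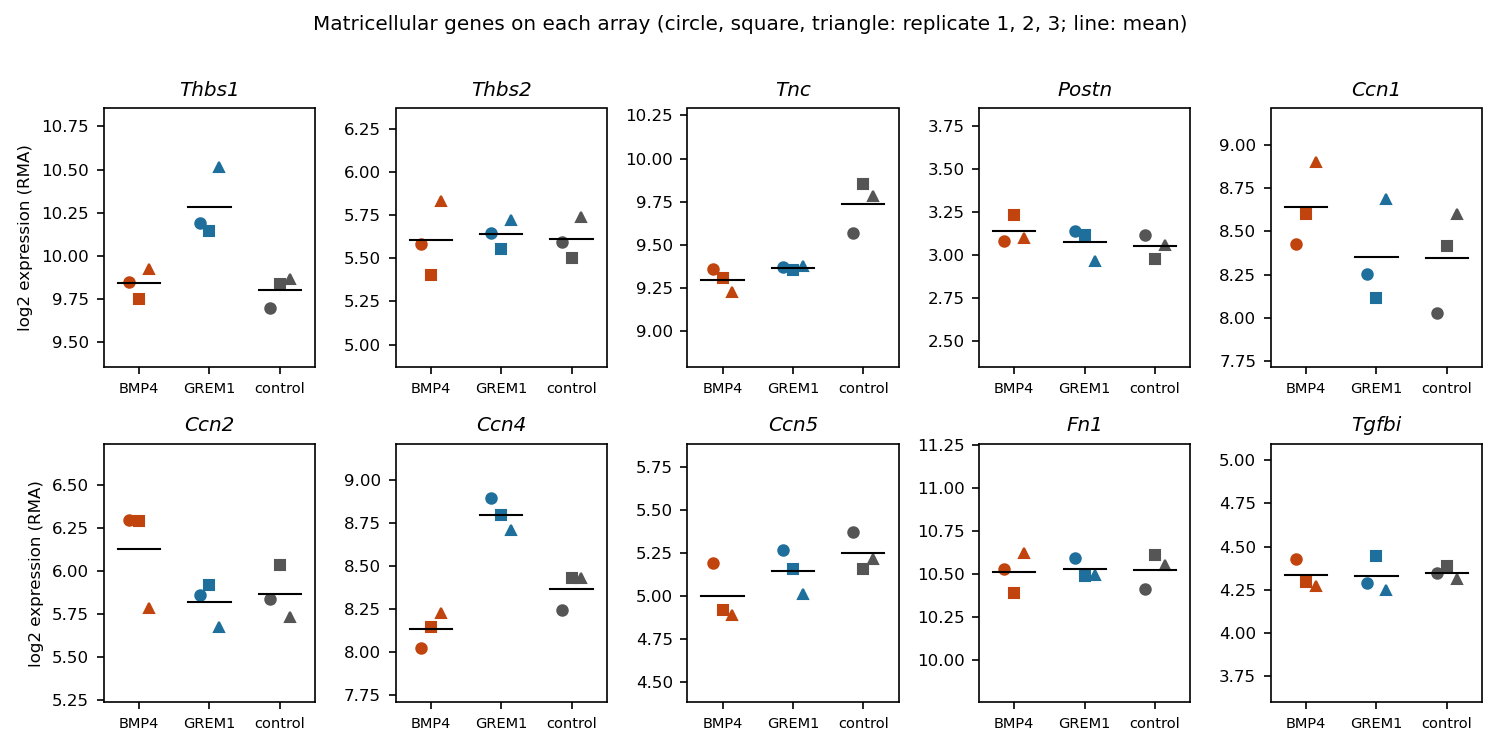
Log2 expression (y axis, each panel spanning 1.5 units) of the 10 matricellular genes on each BMP4, GREM1 and control array, with circles, squares and triangles for replicates 1, 2 and 3 and a line at the group mean. The GREM1 arrays lie above all others for Thbs1 and Ccn4, and the BMP4 and GREM1 arrays both lie below the controls for Tnc.

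Among the CCN proteins, small secreted proteins with modules that bind growth factors, heparan sulfate and integrins, Ccn4 parted the groups most clearly. Ccn4, also called WISP1, is a Wnt-induced member that stromal progenitors of muscle secrete and that acts on satellite cells. It measured 8.02, 8.15 and 8.23 on the BMP4 arrays, 8.89, 8.79 and 8.71 on the GREM1 arrays and 8.25, 8.43 and 8.43 on the control arrays. Every BMP4 array lay below every control array and every GREM1 array above it, so the order was GREM1, control, BMP4 with no overlap. Such separation was seen for 5.9% of all genes as lower with BMP4 and for 11.3% as higher with GREM1, and 12.2% of all genes had BMP4 arrays wholly below the GREM1 arrays.

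Ccn4 was 0.67 ± 0.093 (SE) lower on the log2 scale with BMP4 than with GREM1, which is 1.59-fold higher with GREM1 (adjusted p = 0.00279, limma). That difference, -0.67 as BMP4 minus GREM1, passed under each of the 18 alternative settings, with adjusted p from 6.01e-04 to 0.0176. Against control, Ccn4 rose by 0.43 ± 0.093 with GREM1 (1.35-fold, adjusted p = 0.0353), and BMP4 minus control was -0.24 ± 0.093 (adjusted p = 0.577). The rise with GREM1 did not pass when any single control array, any single GREM1 array or BMP4 replicate 2 was left out. Its values over those 9 left-out arrays ran from 0.37 to 0.47 with adjusted p from 0.0351 to 0.127, and without control replicate 1 it was 0.37 (adjusted p = 0.0934). It also missed the threshold with arrays centred on their medians (adjusted p = 0.0503).

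Ccn1 and Ccn2, formerly Cyr61 and Ctgf, are immediate targets of YAP-TAZ and TGF-beta signalling, and neither passed a test. Ccn1 measured 8.43, 8.60 and 8.90 with BMP4, 8.25, 8.11 and 8.69 with GREM1 and 8.03, 8.41 and 8.60 in controls. The 3 groups overlapped, and the range within a group, 0.47 to 0.58, was wider than any difference between group means. BMP4 minus control was 0.30 with a 95% interval of -0.14 to 0.73 (adjusted p = 0.731), and GREM1 minus control was 0.0032 with an interval of -0.43 to 0.44 (adjusted p = 0.997). Both intervals include differences as large as the rise called for Ccn4.

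Ccn2 measured 6.30, 6.29 and 5.78 with BMP4, 5.86, 5.92 and 5.68 with GREM1 and 5.83, 6.04 and 5.73 in controls. A pair of BMP4 arrays lay above all control and GREM1 arrays, while the third sat among them. BMP4 minus control was 0.26 ± 0.15 (adjusted p = 0.702) and BMP4 minus GREM1 0.31 ± 0.15 (adjusted p = 0.304). GREM1 minus control was -0.051, with a 95% interval of -0.39 to 0.28.

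Ccn5, which lacks the C-terminal module of the other CCN proteins and has been described as an opponent of Ccn2, measured 5.19, 4.92 and 4.89 with BMP4, 5.27, 5.16 and 5.01 with GREM1 and 5.38, 5.16 and 5.22 in controls. Its means ran in the order control, GREM1, BMP4, with overlap at each step. BMP4 minus control was -0.25 ± 0.11 (unadjusted p = 0.0496, adjusted p = 0.619, limma), GREM1 minus control -0.10 ± 0.11 and BMP4 minus GREM1 -0.14 ± 0.11. With BMP4 the means of Ccn1 and Ccn2 thus lay above control and those of Ccn4 and Ccn5 below, none of them past the threshold.

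RefSeq promoter windows of GRCm38.p6, from 250 bases before to 50 after a start site, were at hand for 5 of the 10 genes, Thbs2, Tnc, Postn, Ccn1 and Tgfbi, in 7 windows. They were searched on both strands for the TEAD motif CATTCC, the BMP-SMAD motif GGCGCC, the SMAD palindrome GTCTAGAC, the AP-1 motif TGANTCA and the CArG box, which are read by partners of YAP-TAZ, by SMADs, by AP-1 and by SRF. Ccn1 is shown because its window held 2 of these motifs, and Tnc because its arrays with BMP4 and with GREM1 both lay below the controls. Capitals mark motif matches, which did not overlap each other. The windows are chr3:145649936-145650235 for Ccn1 and chr4:64046887-64047186 for Tnc, both on the minus strand and printed 5′ to 3′ of the gene.
Ccn1: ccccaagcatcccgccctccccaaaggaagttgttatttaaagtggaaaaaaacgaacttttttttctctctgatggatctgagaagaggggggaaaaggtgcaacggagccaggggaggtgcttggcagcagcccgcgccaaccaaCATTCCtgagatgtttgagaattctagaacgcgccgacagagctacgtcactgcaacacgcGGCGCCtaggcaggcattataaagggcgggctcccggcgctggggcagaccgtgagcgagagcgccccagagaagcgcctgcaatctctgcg
Tnc: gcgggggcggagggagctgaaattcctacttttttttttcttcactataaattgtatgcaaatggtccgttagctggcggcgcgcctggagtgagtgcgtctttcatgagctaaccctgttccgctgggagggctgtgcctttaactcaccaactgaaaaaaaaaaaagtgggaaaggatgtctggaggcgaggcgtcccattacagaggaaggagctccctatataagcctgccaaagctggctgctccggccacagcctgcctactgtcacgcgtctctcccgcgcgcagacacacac
The Ccn1 window held CATTCC at -103 and GGCGCC at -42 from the start site. The TEAD motif was in 1 of the 7 windows and in 14.7% of 32851 windows of all genes, and the BMP-SMAD motif was in 2 of the 7 (Ccn1 and Tgfbi) and in 11.9% of all. The palindrome, the AP-1 motif and the CArG box were in 0 of the 7 and in 0.213%, 7.81% and 1.63% of all windows. These letters describe the windows and show no binding.

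Of the thrombospondins, trimeric glycoproteins that restrain angiogenesis and bind the receptor Cd47, Thbs1 rose with GREM1 and Thbs2 did not pass. Thbs1, which can also release active TGF-beta from its latent form, measured 9.85, 9.75 and 9.92 with BMP4, 10.19, 10.14 and 10.51 with GREM1 and 9.70, 9.84 and 9.87 in controls. The GREM1 arrays lay above every other array, and the BMP4 and control arrays overlapped. For 11.3% of all genes the GREM1 arrays lay above all controls, and for 12.2% above all BMP4 arrays. Thbs1 rose by 0.48 ± 0.11 with GREM1 against control (1.40-fold, adjusted p = 0.0430), and BMP4 minus GREM1 was -0.44 ± 0.11, lower with BMP4 (adjusted p = 0.0459, limma). BMP4 minus control was 0.041, with a 95% interval of -0.21 to 0.29 (adjusted p = 0.941).

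Both calls of Thbs1 lay close to the threshold. The rise with GREM1 against control passed without BMP4 replicate 3 (adjusted p = 0.0465) and did not pass without any other single array (highest adjusted p = 0.118, without control replicate 1, where the value was 0.43). The difference between BMP4 and GREM1 passed without control replicate 1 (adjusted p = 0.0492) and did not pass without any other single array, with values from -0.51 to -0.33 and a highest adjusted p of 0.147 without BMP4 replicate 2. GREM1 replicate 3 had the highest Thbs1 of its group, and without it the rise against control was 0.37 (adjusted p = 0.0804). With arrays centred on their medians the adjusted p was 0.0574 for GREM1 against control and 0.0821 for BMP4 against GREM1.

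Thbs2, a close relative that does not activate TGF-beta, measured 5.59, 5.40 and 5.83 with BMP4, 5.65, 5.55 and 5.72 with GREM1 and 5.59, 5.50 and 5.74 in controls. The 3 group means differed by at most 0.033. The 95% interval was -0.27 to 0.26 for BMP4 minus control and -0.24 to 0.30 for GREM1 minus control. The upper bound for GREM1 lies below the measured 0.48 of Thbs1, but a difference between the genes' responses was not tested.

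Tenascin-C is a large hexameric protein that loosens cell adhesion and is made in regenerating muscle. Of the 10 genes it alone had BMP4 and GREM1 arrays that all lay on the same side of control. Tnc measured 9.36, 9.31 and 9.23 with BMP4, 9.37, 9.35 and 9.38 with GREM1 and 9.57, 9.85 and 9.78 in controls. Each of the 6 treated arrays lay below each of the 3 control arrays, and the GREM1 arrays spanned 0.022. Arrays lower than all controls were seen for 5.9% of all genes with BMP4 and for 12.7% with GREM1. Both shares rest on the same control arrays, and genes with both at once were not counted.

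Neither difference of Tnc from control passed as fitted, but GREM1 against control passed under 5 of the 18 alternatives (adjusted p from 0.0114 to 0.155) and BMP4 against control under 1 (0.0260 to 0.438). BMP4 minus control was -0.44 ± 0.090 (adjusted p = 0.183) and GREM1 minus control was -0.37 ± 0.090 (adjusted p = 0.0527). Both values use the same control arrays, of which control replicate 1 was the lowest and nearest to the treated arrays. Without it GREM1 minus control was -0.45 and passed (adjusted p = 0.0321), and BMP4 minus control was -0.52 and did not (adjusted p = 0.139). BMP4 minus GREM1 was -0.069, with a 95% interval of -0.27 to 0.13 (adjusted p = 0.759).

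Fibronectin, the main adhesive glycoprotein of early matrix and a ligand of integrins and of syndecan-4 (Sdc4), showed the smallest span of group means of the 10 genes. Fn1 measured 10.53, 10.39 and 10.62 with BMP4, 10.59, 10.49 and 10.5 with GREM1 and 10.41, 10.61 and 10.55 in controls. Its means lay within 0.014 of each other, well inside the spread of each group. The 95% interval was -0.21 to 0.19 for BMP4 minus control and -0.20 to 0.21 for GREM1 minus control, so a change of the size called for Ccn4 or Thbs1 lies outside both.

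Tgfbi and periostin are related secreted proteins that share fasciclin-type domains and bind integrins and collagen, and both gave low signals. Tgfbi measured 4.43, 4.30 and 4.27 with BMP4, 4.29, 4.45 and 4.25 with GREM1 and 4.35, 4.39 and 4.31 in controls, just above the filter of 3.89 to 4.02. Its groups overlapped, with 95% intervals of -0.21 to 0.17 for BMP4 minus control and -0.21 to 0.17 for GREM1 minus control. Postn measured 3.08, 3.23 and 3.10 with BMP4, 3.14, 3.12 and 2.97 with GREM1 and 3.12, 2.98 and 3.06 in controls, below the filter on 9 of 9 arrays, so it was not tested. Near background, array values understate any change, and no statement on Postn is made.

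**Figure D2:**
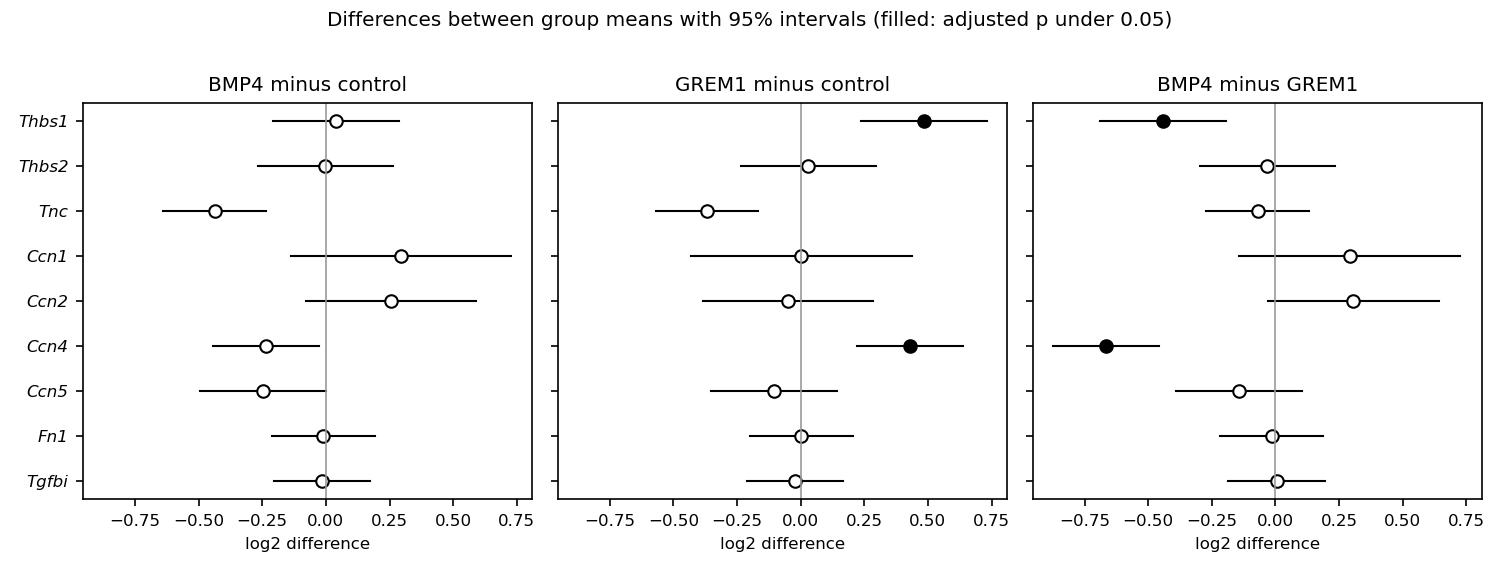
Log2 differences (x axis) of the 9 tested genes for BMP4 minus control, GREM1 minus control and BMP4 minus GREM1, with the 95% interval of each from limma, unadjusted, and filled points for adjusted p under 0.05. Filled points are Thbs1 and Ccn4 in the 2 panels with GREM1, at 0.48 and 0.43 against control and at -0.44 and -0.67 for BMP4 minus GREM1.

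Related proteins outside the 10 genes gave 1 call, higher with BMP4 than with GREM1, as were 3.62% of all tested genes. Of 22 listed, which include other thrombospondins, tenascins, SPARC-family proteins and fibulins, 20 were in the table and 16 were tested. Against control 0 of 16 passed in limma with BMP4 (4 had an unadjusted p under 0.05) and 0 of 16 with GREM1 (2 did). Over the 18 alternatives 0 passed with BMP4 and 0 to 1 with GREM1. Of all tested genes 0.117% passed with BMP4, and 8.02% had an unadjusted p under 0.05. With GREM1 2.07% rose and 2.21% fell, and the unadjusted share was not counted. Between the treatments Ccn3, the CCN member formerly called Nov, was higher with BMP4 by 0.76 ± 0.17 (adjusted p = 0.0257), but not without BMP4 replicate 1 or 3 or GREM1 replicate 1 or 2 (highest adjusted p = 0.103). Ccn3 measured 5.98, 5.56 and 6.03 with BMP4, 5.04, 4.93 and 5.30 with GREM1 and 5.91, 5.41 and 5.63 in controls. Its difference between BMP4 and GREM1 had the opposite sign to that of Ccn4. Sparc, a collagen-binding matricellular protein, gave 0.39 for BMP4 minus control (adjusted p = 0.455), and the thrombospondin Thbs3 0.46 for BMP4 minus GREM1, also without a call.

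Among 18 tested receptors of matricellular proteins 1 fell with BMP4 against control, and 1 rose and 1 fell with GREM1. Over the 18 alternatives the number called ran from 0 to 2 with BMP4 and from 0 to 7 with GREM1. Of all tested genes 0.117% passed with BMP4, and 2.07% rose and 2.21% fell with GREM1. Itga3, an integrin subunit that pairs with beta-1, measured 7.69, 7.70 and 7.73 with BMP4, 9.15, 9.11 and 8.83 with GREM1 and 8.53, 8.55 and 8.49 in controls. Its groups did not overlap and ran in the same order as those of Ccn4. Without overlap, 5.9% of all genes were lower with BMP4 and 11.3% higher with GREM1 than control. For 12.2% all BMP4 arrays lay below the GREM1 arrays. Itga3 fell by 0.81 with BMP4 (adjusted p = 0.0154), though not without any one control or BMP4 array (highest adjusted p = 0.104). It rose by 0.51 with GREM1 (adjusted p = 0.0189), though not without control replicate 1 or 3 or GREM1 replicate 1 or 2 (highest adjusted p = 0.0811).

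Cd47, the receptor that thrombospondins bind, measured 8.35, 8.39 and 8.74 with BMP4, 7.74, 7.55 and 7.68 with GREM1 and 8.30, 8.21 and 8.40 in controls. Its GREM1 arrays were the lowest, where those of Thbs1 were the highest. For 12.7% of all genes the GREM1 arrays lay below all controls. Cd47 fell by 0.65 with GREM1 against control (adjusted p = 0.0173), a call lost without control replicate 1 or 3 or GREM1 replicate 1 or 2 (highest adjusted p = 0.0772).

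Between BMP4 and GREM1, 3 receptors were higher and 2 lower with BMP4, where 3.62% of all genes were higher and 2.83% lower. Sdc3 (0.86, adjusted p = 4.13e-04) and Cd47 (0.83, adjusted p = 0.00264) were higher and Itga3 lower (-1.32, adjusted p = 7.20e-05), whichever array was left out. Sdc3, a syndecan of satellite cells, gave 0.56 for BMP4 minus control (adjusted p = 0.0504). Itga4, an integrin subunit that binds fibronectin, was higher with BMP4 (1.17) but not without BMP4 replicate 1 or 2 or GREM1 replicate 1 or 2. The fibronectin co-receptor Sdc4 was lower with BMP4 (-0.50) but not without BMP4 replicate 2 or GREM1 replicate 1 or 3.

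YAP-TAZ target genes, with Ccn1 and Ccn2 left out of the list, gave 3 rises and 2 falls with GREM1 among 21 tested, and 0 calls with BMP4 against control (3 had an unadjusted p under 0.05 in limma). Over the 18 alternatives the number called ran from 1 to 6 with GREM1 and from 0 to 1 with BMP4. Of all tested genes 2.07% rose and 2.21% fell with GREM1, and 0.117% passed with BMP4. With BMP4 8.02% of all tested genes had an unadjusted p under 0.05. Crim1, a membrane protein that binds BMPs, fell by 0.85 with GREM1 (adjusted p = 0.00563) whichever array was left out, and gave 0.78 for BMP4 minus control, just short of the threshold (adjusted p = 0.0504). Igfbp3, an IGF carrier, rose by 0.62 but not without control replicate 3 or GREM1 replicate 1 or 2. Asap1 fell by 0.77 but not without any one control or GREM1 array. Lats2, a kinase that restrains YAP, rose by 0.37 and Arhgef17 by 0.32, and with single arrays left out Lats2 passed only without control replicate 2 and Arhgef17 only without BMP4 replicate 3. The median of the list was 0.058 with GREM1 and 0.048 with BMP4. Between BMP4 and GREM1, Crim1 (1.62), Asap1 (0.97), Foxf2 (0.49) and Dock5 (0.49) were higher and Igfbp3 lower (-0.85) with BMP4. In that comparison 3.62% of all tested genes were called higher and 2.83% lower. Foxf2 lost the call without control replicate 2, any BMP4 array or GREM1 replicate 1 or 2, and Dock5 without any BMP4 array or GREM1 replicate 2 or 3.

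Of 18 tested genes of TGF-beta ligands, activation and targets, 1 rose with BMP4 and 2 rose and 1 fell with GREM1. The number called ran from 0 to 2 with BMP4 and from 1 to 5 with GREM1 over the 18 alternatives. The shares of all tested genes were 0.117% with BMP4, either direction, and 2.07% higher and 2.21% lower with GREM1. Smad7, an inhibitory SMAD, rose by 1.18 with BMP4 (not without any one control or BMP4 array, highest adjusted p = 0.0950) and fell by 1.03 with GREM1. The smooth muscle proteins Acta2 and Tagln rose by 1.25 and 0.80 with GREM1, as Thbs1 did. Acta2 did not pass without any one GREM1 array and Tagln not without any one of the 9 arrays. Without control replicate 1 the rises were 0.91 for Acta2, which still passed, and 0.62 for Tagln. The ligand Tgfb1 measured 7.51, 7.33 and 7.15 with BMP4, 6.42, 6.08 and 5.70 with GREM1 and 6.18, 6.79 and 6.39 in controls. It was higher with BMP4 than with GREM1 by 1.27 ± 0.20 (adjusted p = 0.00588), the opposite direction to Thbs1. Smad7 (2.21), Skil (0.62) and the collagen cross-linking enzyme Lox (0.55) were also higher with BMP4 than with GREM1. Of the 18 genes, 9 lay above 0 and 9 below for BMP4 minus GREM1, with 4 called higher and 0 lower. In that comparison 3.62% of all tested genes were called higher and 2.83% lower. The ligand Tgfb3, on the side of Thbs1, averaged 8.30 with BMP4, 9.15 with GREM1 and 8.18 in controls. Its GREM1 minus control was 0.97 (adjusted p = 0.0747, limma).

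Among 12 tested matrix partners, to which matricellular proteins bind, 0 passed with BMP4 against control in limma (3 had an unadjusted p under 0.05) and 1 fell with GREM1 (1 to 3 called over the 18 alternatives). That gene was Vcan, a hyaluronan-binding proteoglycan, which fell by 0.80 (adjusted p = 0.00551) whichever array was left out. With GREM1 2.21% of all tested genes fell and 2.07% rose. With BMP4 0.117% passed and 8.02% had an unadjusted p under 0.05. Vcan (0.93) and Col12a1 (1.01), a collagen that binds tenascins, were higher with BMP4 than with GREM1, and Col1a2 lower (-0.31). In that comparison 3.62% of all tested genes were called higher and 2.83% lower. Col12a1 lost the call without any one GREM1 array, and Col1a2 kept it only without control replicate 1.

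**Figure D3:**
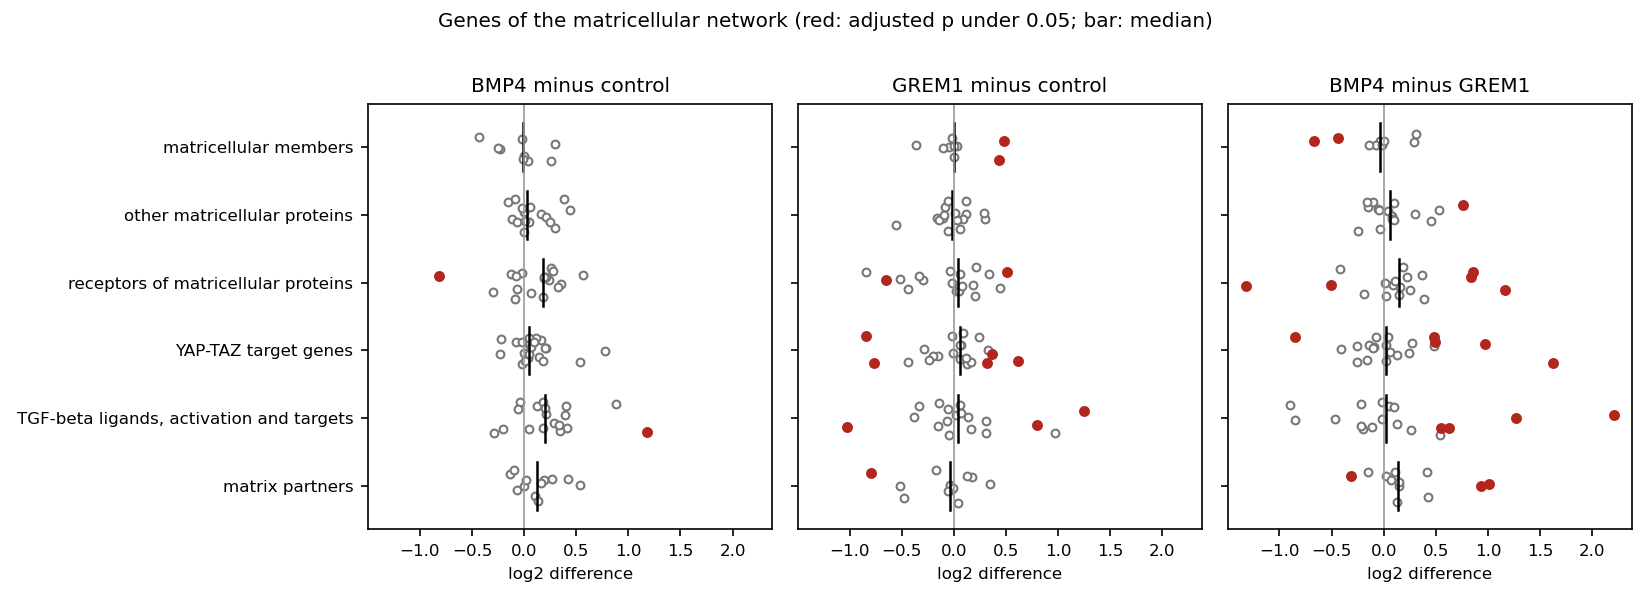
Log2 differences (x axis) of single tested genes in each list for the 3 comparisons, with red points for adjusted p under 0.05 and a bar at the list median. For GREM1 minus control, called genes lie on both sides of 0 in the receptor, YAP-TAZ and TGF-beta lists, while list medians stay between -0.033 and 0.20 in all 3 panels.

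Scx, a tendon transcription factor that the marker lists hold, measured 9.61, 9.63 and 9.03 with BMP4, 10.34, 10.46 and 10.31 with GREM1 and 10.04, 9.91 and 9.66 in controls. It was lower with BMP4 than with GREM1 by 0.95 (-0.95 as BMP4 minus GREM1, adjusted p = 0.00920), the direction of Ccn4 and Thbs1. The tendon marker Mkx went the other way without a call, averaging 4.57 with BMP4, 3.98 with GREM1 and 4.35 in controls. The mean of the 5 tendon markers was 4.94 to 5.13 with BMP4, 5.05 to 5.19 with GREM1 and 4.97 to 5.08 in controls. That of the 5 pericyte markers was 5.07 to 5.23 with BMP4, 4.93 to 5.08 with GREM1 and 4.85 to 5.01 in controls, with Cspg4 higher (0.56, not without BMP4 replicate 3 or GREM1 replicate 1) and Abcc9 lower (-0.91, not without any BMP4 array or GREM1 replicate 1 or 2) with BMP4 than with GREM1. Of the 10 myogenic markers 2 rose with GREM1 against control, Cdh15 and Itga7 (0.91 and 1.00), and 0 fell. Of all tested genes 2.07% rose and 2.21% fell. The other 8 did not pass, among them Myog at 0.90 (adjusted p = 0.0947), Myf5 at -0.85 (adjusted p = 0.144) and Pax7 at -0.20 (adjusted p = 0.504). The part of these markers in the values of Ccn4 and Thbs1 was not tested.

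The genes with profiles most like the called ones were found by the root mean square difference between log2 values over the 9 arrays, each centred on its own mean. For Thbs1 these were Herc1 (0.068), Lsp1 (0.070) and Dner (0.074), where Thbs1 itself had an SD of 0.26 over the arrays. For Ccn4, with an SD of 0.31, they were the adaptor Gab1 (0.065), the glypican Gpc4 (0.090) and Unc93b1 (0.096).

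**Figure D4:**
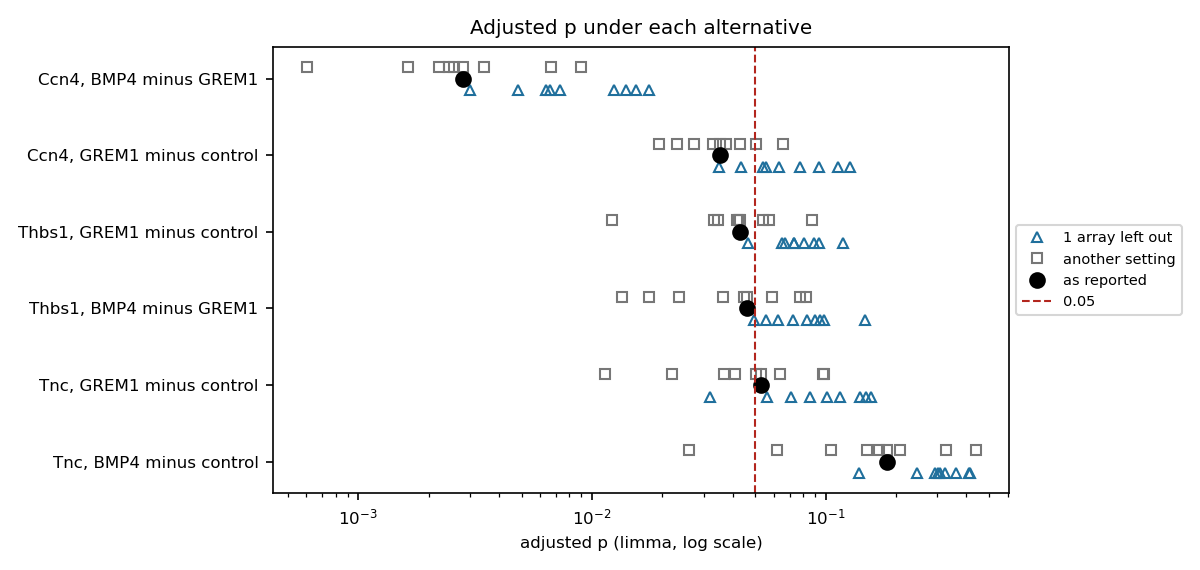
Adjusted p (x axis, log scale) of Ccn4, Thbs1 and Tnc as reported (filled circles), with 1 array left out (triangles) and under other settings (squares), and a dashed line at the threshold of 0.05. Ccn4 between BMP4 and GREM1 stays left of the line throughout, and the other 5 comparisons have points on both sides of it.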

How the data were processed

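Expression was measured in 3 groups of 3 arrays. The deposited log2 values were made by the authors with RMA (background correction, normalization between arrays, 1 value per probe set) and Affymetrix Expression Console, both named in the submitters' processing notes. Array model, chip definition and genome build: not given in the sources used here. Values ran from 1.80 to 12.7 and were used as deposited. The number of arrays limits the precision.

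Of 24973 probe sets, 24015 had 1 gene symbol, 0 had several and 958 had none here. For 4 genes with several probe sets the one with the highest mean was taken, which left 24011 genes. Testing was limited to genes above the 30th percentile of named probe sets on 3 or more arrays (17142 genes). Groups were compared with limma 3.58.1 (lmFit and eBayes, R 4.3.3) on all 9 arrays, two-sided, with 6 residual and 3.47 prior degrees of freedom, and p-values were adjusted per comparison by Benjamini-Hochberg, with calls made under 0.05. The fit was tested on simulated data with independent noise on each array, which leaves out any correlation between same-numbered arrays. No list was tested as a set.

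The 10 genes and the lists of related genes and markers were chosen with earlier results of these data known. Named are the 10 genes, up to 4 genes of each list with the smallest p in a comparison, those past the threshold, and the 3 genes most like each called one. Marker genes were named after their values were seen. Members of the lists without a value here were not analysed.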

Additional observations from a re-analysis of the deposited data

How the results depend on the processing

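The 18 alternatives were a replicate block, a fit limited to the pair of groups, an intensity trend, array weights, renewed quantile normalization, median centring, no filter, a filter at the 50th percentile, the mean of probe sets, and leaving out each of 9 arrays. Of 483 values of single matricellular genes under them (Tgfbi fell out at the stricter filter), 446 kept their side of the threshold, 31 lost it, 6 gained it and 0 called values changed sign. Those that crossed it belong to Thbs1, Ccn4 and Tnc. The cause of these moves was not tested, except that fewer arrays or groups leave fewer degrees of freedom.

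The count of the 10 genes called with GREM1 against control, 2 as reported, was 0 with only the groups compared, 0 with centring and 1 without a filter, and 0 to 2 with an array left out. Between BMP4 and GREM1 it was 1 under the same 3 settings, where 2 were reported, and 1 to 2 with an array left out. With BMP4 against control it was 1, Tnc, with array weights, where 0 were reported. Tnc with GREM1 against control passed with array weights (adjusted p = 0.0114), quantile normalization (0.0221) and the stricter filter (0.0409).

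The count of all genes called with BMP4 against control, 20 as reported, was 65 with the replicate block, 5 with only the groups compared, 68 with array weights, 31 with the stricter filter and 2 to 17 with an array left out. With GREM1 against control, 734 as reported (355 higher and 379 lower), it was 1985 with the block, 437 with only the groups compared and 245 to 898 with an array left out, and centring gave 391 higher and 271 lower. Between BMP4 and GREM1, 1105 as reported, it was 2192 with the block, 1768 with array weights and 560 to 1155 with an array left out.

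The replicate numbers of the labels did not pair the arrays by the limit set, since deviations of same-numbered arrays from their group means correlated over 0.1 in 8 of 9 pairs and at 0.0885 in the lowest. In 5 of 9 arrays both same-numbered arrays correlated more than every other-numbered one, a hint from the data and not the design. With the replicate block 3 of the 10 genes passed with GREM1 against control, Thbs1, Ccn4 and Tnc (-0.37, adjusted p = 0.0366), 2 between BMP4 and GREM1 and 0 with BMP4 against control. Among the listed genes the block gave 2 rises and 5 falls of receptors with GREM1 against control, 3 and 3 of YAP-TAZ targets, 3 and 2 of TGF-beta genes, 0 and 1 of other matricellular proteins (Ccn3, -0.56, adjusted p = 0.0146) and 1 and 2 of matrix partners. With BMP4 against control it also called Crim1 (adjusted p = 0.0138) and Sdc3 (0.0339).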

Other observations

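Several matricellular genes differed between arrays by replicate number in the same way in all 3 groups. Replicate 3 had the highest Thbs1, Thbs2 and Ccn1 of its group with BMP4, with GREM1 and in controls, as was seen for 13.7% of 17146 probe sets of tested genes. It had the lowest Ccn2 and Tgfbi in all 3 groups, as was seen for 10.1% of probe sets. Replicate 1 had the highest Ccn5 in each group. The labels do not say what a replicate number stands for.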
